A study of Mus musculus with 21 samples.

Results

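Bone morphogenetic protein (BMP) and transforming growth factor beta (TGF-beta) genes were described in the newborn mouse subcommissural organ (SCO), a secretory ependymal gland in the roof of the third ventricle, and set against the hippocampus. The members were the protein-coding genes whose symbols name BMP, GDF, TGF-beta and activin ligands, their receptors, Smads, Id genes, latent binding proteins and extracellular modulators. The rule took 65 of the 31883 genes in the table, of which 17965 are protein coding. Bulk RNA sequencing covered 4 SCO libraries and 5 hippocampus libraries, all from C57BL/6 mice on postnatal day 0 (P0). The labels give no treatment or transgene for either tissue, and do not say whether a sample is a single animal, so the p-values describe the scatter of these samples, part of which could be technical. A further 12 samples of P60 were not analysed here.

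Ligands of both families bind pairs of type I and type II receptors, which phosphorylate Smad proteins that enter the nucleus with Smad4. BMP ligands act mainly through Smad1, Smad5 and Smad9, and TGF-beta and activin ligands mainly through Smad2 and Smad3. Secreted proteins hold the ligands back or release them, and the Id genes are standard targets of BMP signalling. The SCO forms in the roof plate of the diencephalon and the hippocampus beside the cortical hem, and both the roof plate and the hem are embryonic sources of BMPs.

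Values are normalized counts, read counts per gene divided by a size factor for each library. SCO libraries held 35379988 to 64242533 reads and hippocampus libraries 36787949 to 151009954 reads. Pearson correlations of log2(value + 1) were 0.813 to 0.828 between SCO libraries and 0.824 to 0.871 between hippocampus libraries. Across tissues they were 0.768 to 0.816, so the highest lay above the lowest within SCO. Markers went with the labels: SCO ependyma genes (Sspo, Car3, Spdef) took 0.0187 to 0.0568% of reads in SCO and 0.000176 to 0.000758% in hippocampus, and hippocampal neuron genes 0.0108 to 0.0173% in SCO and 0.166 to 0.268% in hippocampus. Other lists differed as well. Habenula and thalamus neuron genes took 0.0770 to 0.117% in SCO and 0.00445 to 0.0102% in hippocampus, with 4 of 6 higher by limma. Tac2, on that list, had the lower mean in SCO (278, against 830 normalized counts in hippocampus, limma adjusted p = 0.212). Haemoglobin took 0.0784 to 0.145% in SCO and 0.00741 to 0.0442% in hippocampus. In SCO replicate 4, 0.323% of reads fell on choroid plexus genes, against 0.0175 to 0.0234% in the other SCO libraries and 0.000685 to 0.0244% in hippocampus. Motile cilia genes took 0.0166 to 0.0317% in SCO and 0.00223 to 0.00444% in hippocampus, with 2 of 5 higher by limma. Microglial genes took 0.0421 to 0.050% in SCO and 0.0177 to 0.0299% in hippocampus, without overlap, though 0 of 8 passed the test. Meningeal and mural lists overlapped between tissues, with 0 called. The part of these cell types in the results was not tested.

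Of the 65 members, 64 had a mean of at least 1 normalized count in either tissue and were tested. Differences passed limma-trend with Benjamini-Hochberg adjustment at 0.05 for Tgfb2 and Inhbb, both lower in SCO. That is 3.12% of the members tested, beside a background of 3.05% of all 28150 genes tested, so the share is near the background. By direction, 0 of 64 rose, against 1.71% of all genes, and 2 of 64 fell, against 1.34%. The unadjusted p was under 0.05 for 16 of 64 members (9 higher, 7 lower), against 15.5% of all genes, and edgeR called 1 member higher and 3 lower of 53 it tested, against 3.65%. The median log2 difference was -0.11 over the members and -0.04 over all genes tested. Of the 65 members, 34 (52.3%) had a read in every library, against 49.4% of all 31883 genes. Among those tested the order was reversed, with 53.1% of 64 members and 55.9% of 28150 genes. SCO and hippocampus libraries did not overlap for 8 of 64 members (12.5%, against 8.53% of all genes tested). In 5 of them SCO lay above (4.78% of all genes) and in 3 below (3.75%). Of the 8, 6 did not pass the test: Sostdc1, Bmp4, Acvrl1, Ltbp3, Id4 and Bmpr1a.

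**Figure D1:**
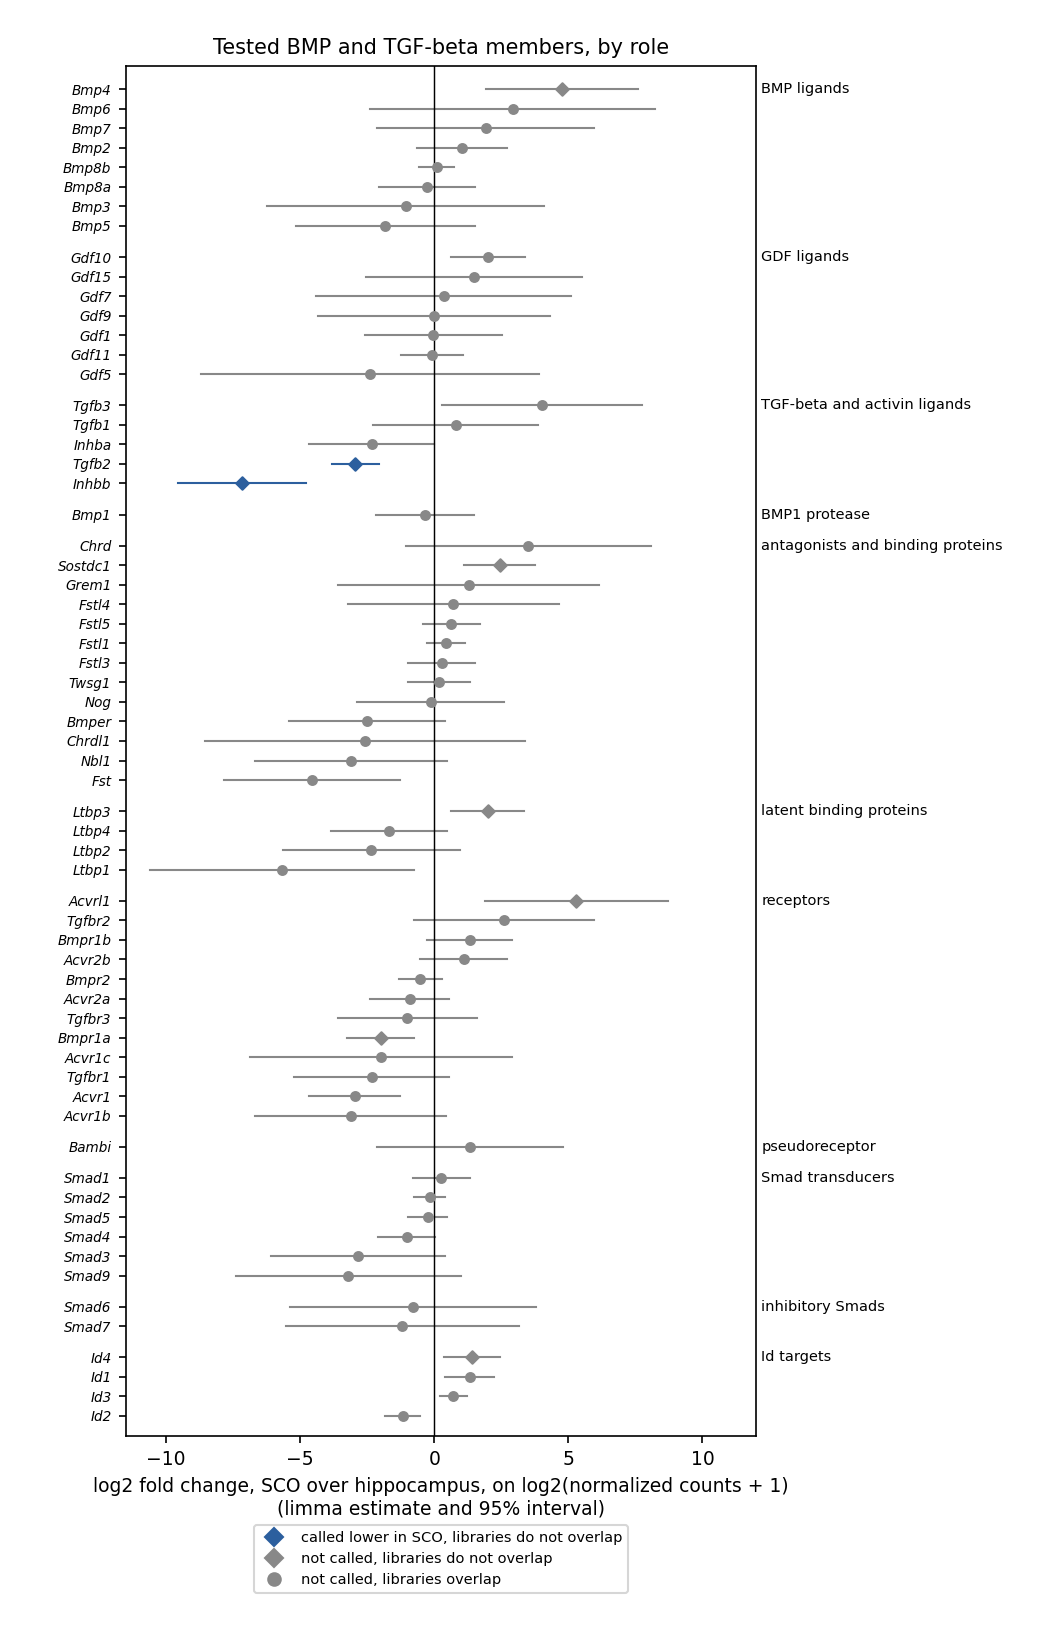
Log2 fold change (SCO over hippocampus, log2(normalized counts + 1) scale) of tested members by role, with its 95% limma interval; blue diamonds passed the test, grey diamonds did not but had libraries that do not overlap, and grey circles overlap. Tgfb2 (-2.95) and Inhbb (-7.17) are the blue diamonds, and no member passed above 0.

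Among the TGF-beta and activin ligands, Tgfb2 and Inhbb fell and the other 3 did not pass the test. Tgfb2 encodes TGF-beta 2, a secreted ligand made in a latent form. It had 461, 251, 632 and 360 normalized counts in SCO replicates 1 to 4, against 2926, 1930, 3153, 3032 and 5461 in hippocampus replicates 1 to 5. Every SCO library lay below every hippocampus library, and replicate 5 was the highest of the hippocampus. The means were 426 ± 162 in SCO (SD, n = 4) and 3300 ± 1302 in hippocampus (SD, n = 5), so the hippocampus mean was 7.75 times the SCO mean. Its log2 fold change, SCO over hippocampus on the log2(value + 1) scale, was -2.95 (standard error 0.40, adjusted p = 0.003 by limma), and it passed the test in all 9 fits with a replicate left out (adjusted p 0.00294 to 0.0114). In bulk tissue, fewer cells of a type and less RNA per cell cannot be told apart. Tgfb2 (ENSMUSG00000039239.14, GRCm38 chr1:186622792-186705989, minus strand) shares 124 exon bases, 2.14% of its exons, with Gm29491 on the opposite strand. That gene averaged 0.746 normalized counts in SCO and 76.9 in hippocampus.

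Inhbb encodes the beta B subunit of activins and inhibins. No SCO library had a read for it, and hippocampus replicates 1 to 5 had 554, 172, 268, 62.9 and 36.9 normalized counts. The tissues did not overlap, and replicates 4 and 5, the most deeply sequenced, were the lowest of the hippocampus. Against a floor of 3 reads per SCO library, Inhbb was at least 58.3-fold lower in SCO than the hippocampus mean of 219 ± 209 (SD, n = 5), and at least 36.0-fold lower without hippocampus replicate 1. Its log2 fold change was -7.17 (standard error 1.07, adjusted p = 0.00553 by limma), a value that depends on the pseudocount, and it passed in all 9 fits with a replicate left out (adjusted p 0.00634 to 0.0199). With values in CPM and the pseudocount still at 1, the limma adjusted p was 0.063. It lies on the minus strand of chr1:119415465-119422248 (ENSMUSG00000037035.5).

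The 250 bases before the start of each of these genes are shown because they are the members that passed the test. The sequences are from RefSeq (GRCm38.p6), both on the minus strand, with motif matches in capitals.
Tgfb2, chr1:186705990-186706239: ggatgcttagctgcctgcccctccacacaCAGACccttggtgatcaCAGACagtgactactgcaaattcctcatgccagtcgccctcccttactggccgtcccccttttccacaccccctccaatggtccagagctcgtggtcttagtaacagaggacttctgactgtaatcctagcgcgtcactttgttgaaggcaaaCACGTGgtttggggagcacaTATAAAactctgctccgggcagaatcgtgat
Inhbb, chr1:119422249-119422498: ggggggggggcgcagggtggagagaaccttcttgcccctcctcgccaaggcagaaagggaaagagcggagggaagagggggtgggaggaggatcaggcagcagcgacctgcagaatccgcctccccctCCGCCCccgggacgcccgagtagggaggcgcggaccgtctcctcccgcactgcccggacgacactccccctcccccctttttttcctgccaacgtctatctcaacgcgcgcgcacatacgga
Motif spellings were searched on both strands, chosen with the sequences in view, and the matches found share no bases. Counting the start as position 1, the Tgfb2 window held the Smad box CAGAC at -221 and -204, the E-box CACGTG at -51 and a TATAAA at -31. The Inhbb window held the GC box GGGCGG, read on the opposite strand as CCGCCC, at -122. Of 32851 RefSeq windows of this length, 42.2% held CAGAC, 6.02% CACGTG, 12.4% TATAAA and 32.7% GGGCGG. Neither window held GGCGCC (9.59% of windows) or TGACGTCA (1.55% of windows). GC content was 53.6% for Tgfb2 and 68% for Inhbb.

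The other TGF-beta and activin ligands did not pass the test. Tgfb3, another TGF-beta ligand, had 818, 597, 2206 and 974 normalized counts in SCO replicates 1 to 4, against 605, 19.8, 189, 397 and 0 in hippocampus replicates 1 to 5. The ranges overlapped by a single pair, SCO replicate 2 lying just below hippocampus replicate 1. Its log2 fold change was 4.02 (standard error 1.68, adjusted p = 0.279 by limma). Inhba, the beta A activin subunit, had 128, 42.8, 60.3 and 505 normalized counts in SCO, against 828, 1796, 626, 1181 and 60.1 in hippocampus, where replicate 5 was low (a log2 fold change of -2.34, limma adjusted p = 0.323). Tgfb1 reached at most 7.84 normalized counts in SCO and 63.7 in hippocampus, where that value came from a single library. Activin is bound by follistatin, encoded by Fst, which had 0 reads in every SCO library and 9.99, 59.4, 267, 41.3 and 0 normalized counts in hippocampus. Fst missed the threshold (a log2 fold change of -4.57, standard error 1.48, adjusted p = 0.145 by limma) and passed it without hippocampus replicate 5, which had no read (adjusted p = 0.0382). That was the 1 passing fit of the 9 with a replicate left out (highest limma adjusted p 0.250).

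**Figure D2:**
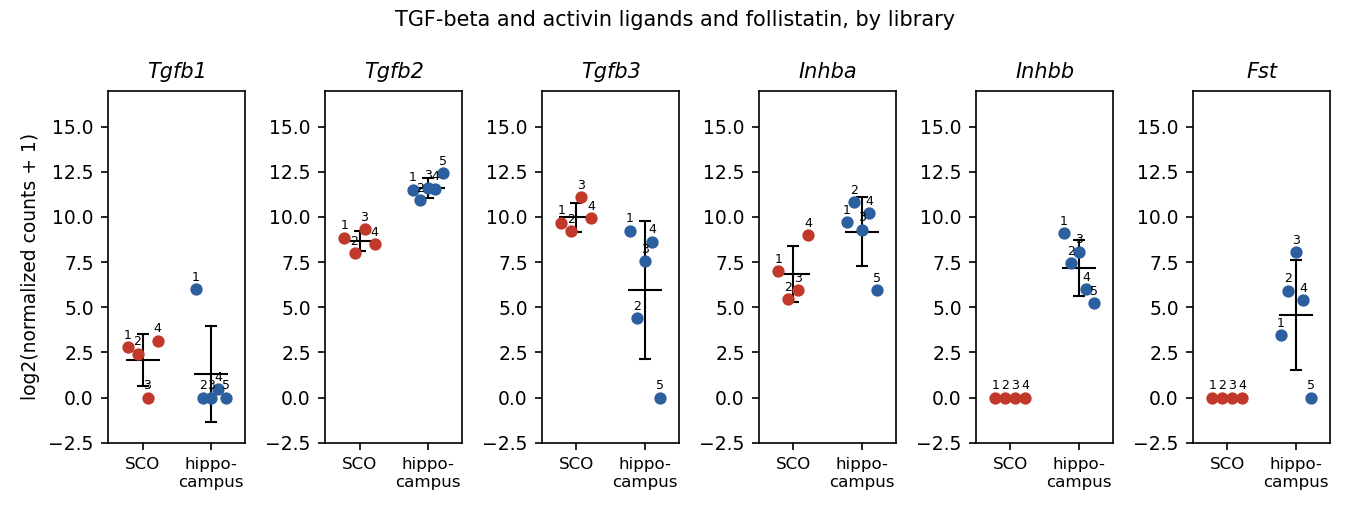
Levels of the TGF-beta and activin ligands and Fst in SCO (red) and hippocampus (blue), where points are libraries with their replicate numbers, and bars are the mean and SD of the plotted log2(normalized counts + 1). All SCO points of Tgfb2 (251 to 632 normalized counts) lie below all hippocampus points (1930 to 5461), and Inhbb and Fst are at 0 in every SCO library.

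None of the 8 BMP ligands passed the test, and their values spread widely between libraries of a tissue. Bmp4 had 546, 10.3, 5.48 and 12.3 normalized counts in SCO, and none of the 5 hippocampus libraries had a read for it. Against 3 reads per hippocampus library this is at least 51.2-fold higher in SCO (a log2 fold change of 4.76, limma adjusted p = 0.0813), and at least 3.34-fold higher without SCO replicate 1. Bmp6 had 1173, 0, 396 and 595 normalized counts in SCO, against 107, 14.9, 0, 393 and 1.14 in hippocampus (limma adjusted p = 0.598). Bmp7 had 1741, 19.2, 552 and 61.6 in SCO, against 0, 261, 52.6, 219 and 93.2 in hippocampus (limma adjusted p = 0.644). SCO replicate 1 held the highest value of Bmp4, Bmp6 and Bmp7 in any library. Per kilobase of exon, Bmp8b was the most abundant BMP ligand (751 in SCO, 698 in hippocampus), and its level was close between tissues, with means of 2914 ± 767 normalized counts across SCO libraries and 2708 ± 606 across hippocampus libraries (SD, n = 4 and 5). Its log2 fold change of 0.09 had a 95% interval of -0.55 to 0.73. Bmp8b shares exon bases with Ppie and Gm17244 on the opposite strand and has the paralog Bmp8a, so its level is uncertain. Bmp2, Bmp3, Bmp5 and Bmp8a had means of at most 74.1 normalized counts in SCO and 116 in hippocampus, and Bmp5 had no read in SCO. Bmp1, which is a protease that cleaves the antagonist chordin rather than a ligand, averaged 349 ± 81.5 normalized counts across SCO libraries and 677 ± 622 in hippocampus (SD, n = 4 and 5; limma adjusted p = 0.855).

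Gdf10, a ligand related to BMP3, had the highest mean per kilobase of the GDF ligands in SCO (622, against 163 in hippocampus). It had 1016, 5122, 3110 and 3718 normalized counts in SCO, against 476, 525, 293, 1199 and 1741 in hippocampus. SCO replicate 1 lay within the hippocampus range and the other SCO libraries lay above it. The means were 3242 ± 1706 in SCO and 847 ± 607 in hippocampus (SD, n = 4 and 5), with a log2 fold change of 2.02 (standard error 0.62, adjusted p = 0.122 by limma). Gdf5, a joint-forming ligand that shares 40.3% of its exon bases with Gm15557 on the opposite strand, had 0, 2373, 595 and 0 normalized counts in SCO, against 1163, 365, 949, 483 and 0 in hippocampus (limma adjusted p = 0.687). Gdf1 lies wholly within exons of Cers1 on the same strand, so its reads cannot be assigned. Gdf9, Gdf11 and Gdf15 had means of 43.8 to 572 in SCO and 10.5 to 624 in hippocampus. Gdf7, a roof plate ligand, exceeded 2 normalized counts in 1 of 4 SCO libraries and 1 of 5 hippocampus libraries. Gdf6 was not tested, with 0 reads in SCO and 4.99 normalized counts in a single hippocampus library.

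Of the 14 antagonists and binding proteins, none passed the limma test. Sostdc1, a secreted BMP and Wnt antagonist, had 2748, 1452, 716 and 5809 normalized counts in SCO, against 225, 688, 381, 331 and 369 in hippocampus. Every SCO library lay above every hippocampus library, with SCO replicate 3 just above hippocampus replicate 2. The means were 2681 ± 2248 in SCO and 399 ± 173 in hippocampus (SD, n = 4 and 5), and the log2 fold change was 2.43 (standard error 0.60, interval 1.10 to 3.76, adjusted p = 0.0596 by limma). edgeR, run on the recovered reads, gave an adjusted p of 0.0346, and limma gave 0.0263 without SCO replicate 3. That was the 1 passing limma fit of the 9 with a replicate left out (highest adjusted p 0.142). SCO replicate 4, the highest, also held the choroid plexus reads: Ttr, a choroid plexus marker, had 171311 normalized counts there, against 108 to 560 in the other SCO libraries and 0 to 12985 in hippocampus. Without it Sostdc1 had a log2 fold change of 1.93 (limma adjusted p = 0.125). Of the 10 choroid plexus markers, 2 rose, Abca4 and Calml4, and Kl had no read in any SCO library. Folr1, Clic6, Kcne2, Slc4a5 and Prlr were, like Ttr, highest in replicate 4 among the SCO libraries, and Aqp1 was highest in replicate 1. Kcne2 had 837 normalized counts in replicate 4 and 0 to 14.8 in the other SCO libraries, and Prlr 1481 and 16.4 to 220. Abca4 and Calml4, the 2 that rose, were instead lowest in replicate 4 among the SCO libraries. Abca4 had 91.8 normalized counts there and 415 to 843 in the others, and Calml4 5219 and 6718 to 9901.

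Fstl1, a secreted follistatin-like protein, had the highest mean per kilobase of this group in both tissues (1559 in SCO, 1225 in hippocampus). Its counts averaged 7659 ± 1360 across SCO libraries and 6021 ± 2357 in hippocampus (SD, n = 4 and 5; limma adjusted p = 0.586). Fstl5 had 1849, 8368, 7126 and 5306 in SCO, against 4286, 1441, 3565, 4111 and 3590 in hippocampus (limma adjusted p = 0.593). Twsg1, which modulates chordin and BMP complexes, averaged 3971 ± 3001 in SCO and 2795 ± 862 in hippocampus (SD, n = 4 and 5; limma adjusted p = 0.893). Chrd, which encodes chordin, had 0, 436, 447 and 30.2 in SCO, against 11.2, 0, 0, 74.2 and 0.761 in hippocampus (limma adjusted p = 0.472). Chrd had no read in some libraries of each tissue, and Nog, which encodes noggin, did not exceed 9.13 normalized counts in SCO or 31.4 in hippocampus. Of the group's other members, Bmper, Chrdl1, Fstl3, Fstl4, Grem1 and Nbl1, had means of 79.0 to 581 in SCO and 92.2 to 1119.6 in hippocampus.

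Some latent binding proteins hold TGF-beta in the matrix until it is released, and none of the 4 members of this group passed the test. Ltbp3 had 1155, 1816, 1185 and 668 normalized counts in SCO, against 298, 233, 88.7, 471 and 654 in hippocampus, with SCO replicate 4 just above hippocampus replicate 5. Its log2 fold change was 1.99 (standard error 0.61, adjusted p = 0.119 by limma). Ltbp1 had 2338 normalized counts in SCO replicate 1 and no read in the other 3 SCO libraries, against 546, 251, 66.0, 546 and 1193 in hippocampus. With all libraries its log2 fold change was -5.69 (limma adjusted p = 0.239), and without SCO replicate 1 it was -8.49 (limma adjusted p = 0.00591). That was the 1 passing fit of the 9 with a replicate left out (highest limma adjusted p 0.428). The means of Ltbp1 were 584 in SCO and 520 in hippocampus, opposite in order to the mean log values, and edgeR gave a log2 fold change of 0.14. Ltbp4 had means of 189 in SCO and 370 in hippocampus, and Ltbp2 had no read in SCO and a mean of 25.1 in hippocampus.

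None of the 12 receptors passed the test. Per kilobase of exon, Bmpr1b was above Bmpr1a in SCO (means of 215 and 51.8 normalized counts) and below it in hippocampus (95 and 179); both are BMP type I receptors. Bmpr1a had 230, 588, 98.6 and 401 normalized counts in SCO, against 1247, 700, 754, 1409 and 1568 in hippocampus, with no overlap (a log2 fold change of -1.99, standard error 0.56, adjusted p = 0.0951 by limma). Bmpr1b had 2280, 1669, 506 and 685 in SCO, against 648, 535, 280, 121 and 1248 in hippocampus, with overlap (a log2 fold change of 1.31, limma adjusted p = 0.428). Acvr1, a type I receptor for BMPs, had 65.6, 301, 71.2 and 745 in SCO, against 2062, 588, 1389, 2376 and 1460 in hippocampus, where SCO replicate 4 alone overlapped (a log2 fold change of -2.97, standard error 0.76, adjusted p = 0.0691 by limma). Without SCO replicate 4 the limma adjusted p of Acvr1 was 0.022, the 1 passing fit of the 9 with a replicate left out (highest 0.159).

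Acvrl1, an endothelial type I receptor, had 668, 818, 262 and 80.6 normalized counts in SCO, against 1.25, 0, 2.06, 75.3 and 76.1 in hippocampus, with SCO replicate 4 just above the hippocampus maximum (a log2 fold change of 5.30, standard error 1.55, adjusted p = 0.104 by limma). The 10 endothelial markers together took 0.0310 to 0.0427% of reads in SCO and 0.0149 to 0.0266% in hippocampus, so the shares did not overlap. Of these markers 9 had a positive log2 fold change, and 0 of 10 passed the limma test. The part of endothelium in the Acvrl1 values was not tested. Among type II receptors, Bmpr2 averaged 1365 ± 138 normalized counts across SCO libraries and 2077 ± 706 in hippocampus, with a log2 fold change of -0.52 (interval -1.31 to 0.27), and Acvr2a 1480 ± 881 in SCO and 2236 ± 965 in hippocampus (SD, n = 4 and 5). Acvr2a shares exon bases with Orc4. Tgfbr1, the TGF-beta type I receptor, had 1801, 611, 9.13 and 1156 normalized counts in SCO, against 2373, 769, 1397, 1790 and 3057 in hippocampus, with SCO replicate 3 far below the rest (limma adjusted p = 0.442). Tgfbr2, its type II partner, was even across SCO at 246, 307, 259 and 240, against 237, 0, 122, 242 and 20.2 in hippocampus (limma adjusted p = 0.467). The remaining receptors, Acvr1b, Acvr1c, Acvr2b and Tgfbr3, had means of 26.3 to 513 in SCO and 107 to 598 in hippocampus. Bambi, a pseudoreceptor that dampens signalling, had 1100, 1161, 5.48 and 1066 in SCO, against 278, 75.9, 164, 21.2 and 329 in hippocampus. SCO replicates 1, 2 and 4 lay above all hippocampus libraries and SCO replicate 3 below them (limma adjusted p = 0.683).

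**Figure D3:**
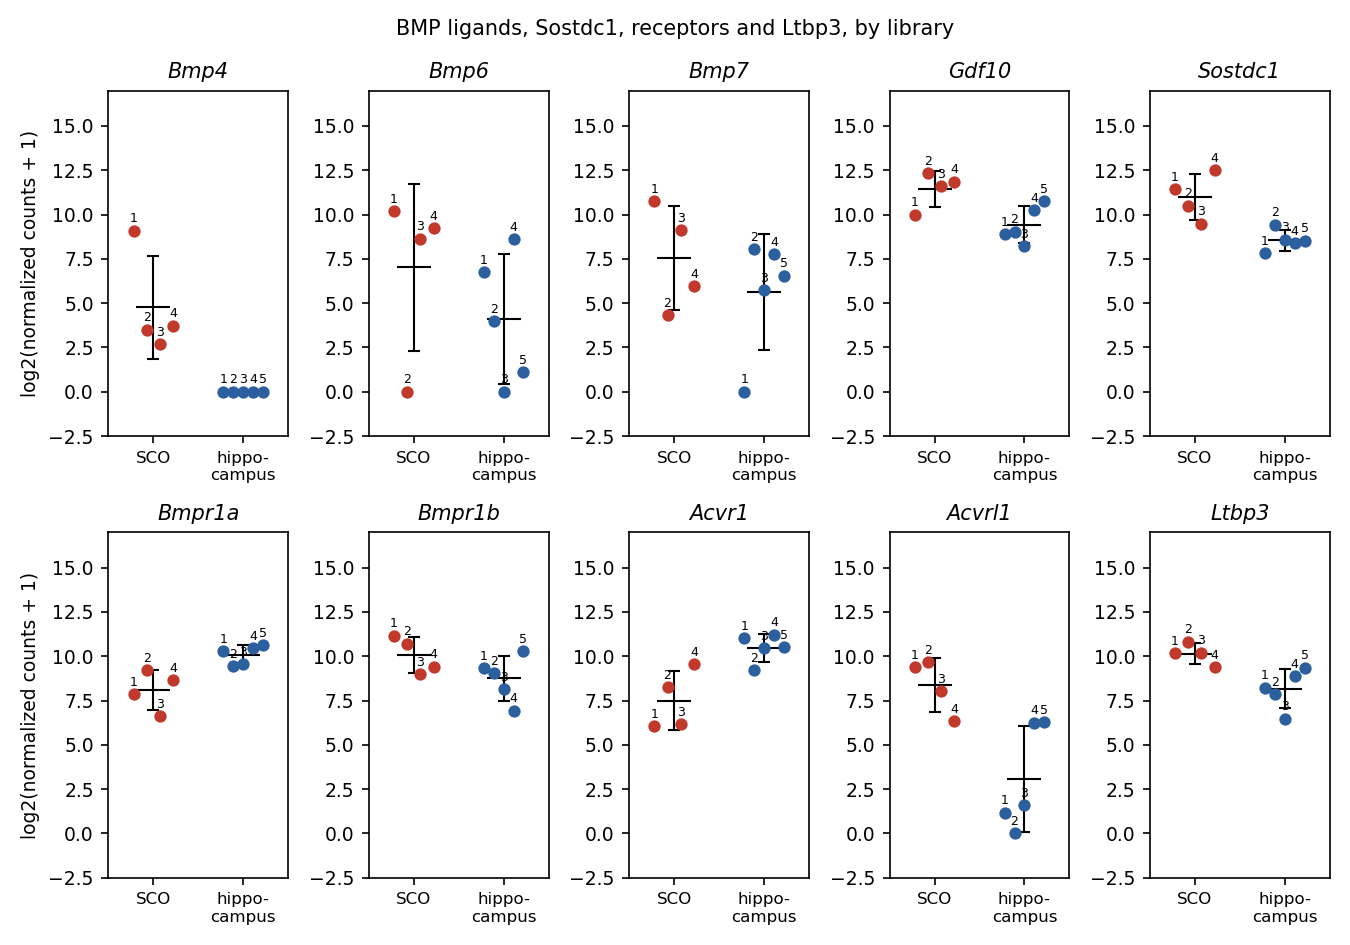
Levels of 3 BMP ligands, Gdf10, Sostdc1, 4 type I receptors and Ltbp3 in SCO (red) and hippocampus (blue), where points are libraries with their replicate numbers, and bars are the mean and SD of the plotted log2(normalized counts + 1). Bmp4 has reads in SCO alone, with replicate 1 at 546 normalized counts, and the tissues do not overlap for Bmp4, Sostdc1, Bmpr1a, Acvrl1 and Ltbp3.

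None of the 6 signalling Smads and 2 inhibitory Smads passed the test. Smad2, which carries TGF-beta and activin signals, averaged 2332 ± 504 normalized counts across SCO libraries and 2639 ± 579 in hippocampus, with a log2 fold change of -0.18 (interval -0.77 to 0.41). Smad5, which carries BMP signals, had 1285 ± 453 in SCO and 1457 ± 228 in hippocampus (a log2 fold change of -0.24, interval -0.96 to 0.49). Smad4, the shared partner, had 334, 842, 269 and 667 in SCO, against 1496, 1043, 761, 1258 and 560 in hippocampus (limma adjusted p = 0.341). Of the others, Smad1 had means of 893 in SCO and 826 in hippocampus, Smad3 of 112 in SCO and 201 in hippocampus, and Smad9 of 5.71 in SCO and 91.1 in hippocampus. The Smad3 mean in SCO rested on replicate 4, at 431, the other SCO libraries having at most 8.95. The inhibitory Smad6 and Smad7 were low, with means of 69.8 and 61.6 in SCO and 33.3 and 46.9 in hippocampus, and Smad6 in SCO rested on replicate 2.

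The Id genes, which encode inhibitors of basic helix-loop-helix transcription factors, did not pass the limma test. Their unadjusted p was under 0.05 for 4 of 4, against 15.5% of all genes tested, 3 of them with a positive and 1 with a negative fold change. Id1, Id3 and Id4 had higher means in SCO and Id2 a lower one. Id2 had 11938, 15042, 15378 and 18414 normalized counts in SCO, against 27647, 49179, 45817, 39731 and 18390 in hippocampus. SCO replicate 4 lay just above hippocampus replicate 5, the sole overlap. The log2 fold change was -1.18 (standard error 0.29, adjusted p = 0.0589 by limma). edgeR gave Id2 an adjusted p of 0.0483, and limma gave 0.0142 without hippocampus replicate 5. That was the 1 passing limma fit of the 9 with a replicate left out (highest adjusted p 0.146).

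Id1 had 2178, 2884, 2292 and 3045 normalized counts in SCO, against 740, 2453, 690, 1193 and 781 in hippocampus (a log2 fold change of 1.32, standard error 0.41, adjusted p = 0.124 by limma). Id3 had 8873, 8716, 8771 and 6939 in SCO, against 4359, 7481, 4976, 4614 and 4366 in hippocampus (a log2 fold change of 0.72, standard error 0.22, adjusted p = 0.129 by limma). Id4 had 1446, 1026, 985 and 898 in SCO, against 477, 847, 230, 483 and 241 in hippocampus, with no overlap (a log2 fold change of 1.40, standard error 0.47, adjusted p = 0.161 by limma). Hippocampus replicate 2 was the highest hippocampus library for all 4 Id genes. Without it the limma adjusted p was 0.0149 for Id1 and 0.0167 for Id3. For both genes this was the 1 passing fit of the 9 with a replicate left out. The highest limma adjusted p over those fits was 0.244 for Id1 and 0.246 for Id3. Per kilobase of exon, Id2 had the highest level of the members in both tissues, at 6232 normalized counts in SCO and 14829 in hippocampus. Id3 came next, at 4648 per kilobase in SCO and 2881 in hippocampus.

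**Figure D4:**
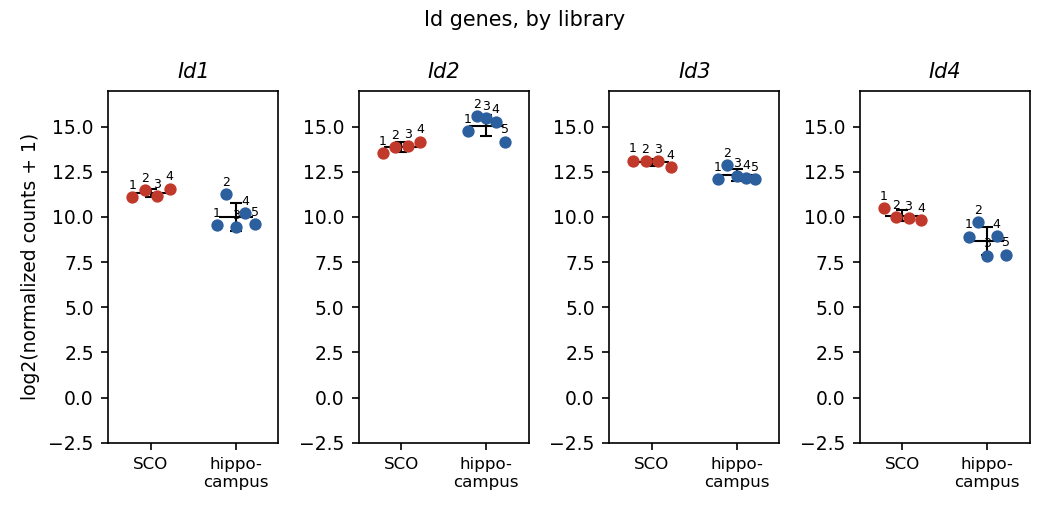
Levels of the 4 Id genes in SCO (red) and hippocampus (blue), where points are libraries with their replicate numbers, and bars are the mean and SD of the plotted log2(normalized counts + 1). Means lie higher in SCO for Id1, Id3 and Id4 and lower for Id2, none of them passing the limma test, and replicate 2 is the highest hippocampus point in each.

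Within pairs of related members, shares of counts per kilobase separated the tissues. The pairs were chosen after their values were seen and carry no test. Tgfb3 made up 75.2 to 85.7% of Tgfb2 plus Tgfb3 in SCO and 0 to 26.2% in hippocampus. Bmpr1b made up 64.6 to 91.4% of Bmpr1a plus Bmpr1b in SCO and 8.41 to 45.9% in hippocampus. Id2 made up 40.5 to 52.9% of the 4 Id genes in SCO and 70.4 to 84.6% in hippocampus. A share does not depend on a library's size factor.

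**Figure D5:**
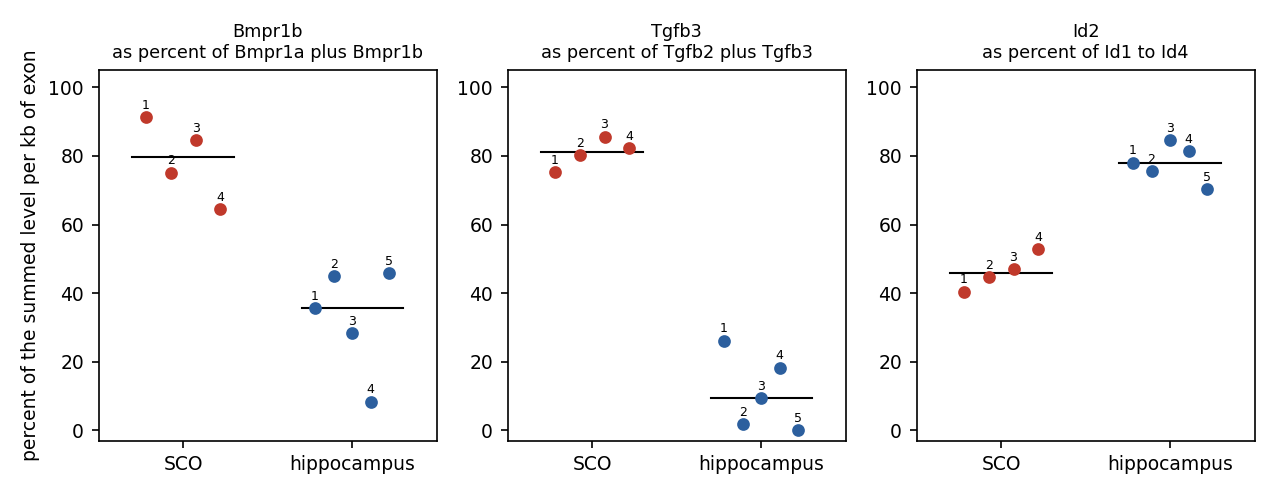
Share, in percent of the summed counts per kilobase of exon, of the gene named first in each panel, for SCO (red) and hippocampus (blue); points are libraries with replicate numbers and lines are medians. The tissues do not overlap in any of the 3 shares.

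A wider list of pathway genes that are not members, among them other ligands, proteases, integrins, ubiquitin ligases and target transcription factors, held 75 genes. Of these, 72 were in the table and 71 were tested. Of those, 1 rose and 3 fell, 5.63% against 3.05% of all genes, with a median log2 fold change of -0.15. Eng, the endothelial co-receptor endoglin that partners Acvrl1, averaged 3144 ± 678 normalized counts across SCO libraries and 443 ± 178 in hippocampus (SD, n = 4 and 5; log2 fold change 2.89, limma adjusted p = 0.00299), and the part of endothelium in it was not tested. Msx3, a dorsal homeobox gene, averaged 0.280 ± 0.560 in SCO and 369 ± 251 in hippocampus (a log2 fold change of -8.03, limma adjusted p = 0.00121). The other Msx genes of the list did not pass the test. Msx1 averaged 4149 in SCO and 325 in hippocampus, with overlap (a log2 fold change of 4.01, limma adjusted p = 0.125). Msx2 averaged 0 in SCO and 28.4 in hippocampus (limma adjusted p = 0.657). Eng and Msx3 passed in all 9 fits with a replicate left out. Nedd4l, a ubiquitin ligase acting on activated Smads, had 3048 ± 949 in SCO and 8579 ± 2837 in hippocampus (a log2 fold change of -1.49, limma adjusted p = 0.0384), but lost the call in 7 of the 9, keeping it without SCO replicate 4 or hippocampus replicate 2 (adjusted p 0.0618 to 0.0975 where lost). Dlx5, a homeobox gene, had 83.9 ± 166 in SCO and 1000.3 ± 192 in hippocampus (a log2 fold change of -7.32, limma adjusted p = 0.0319), but lost the call in 8 of the 9, keeping it without SCO replicate 2 (adjusted p 0.0590 to 0.0791 where lost).

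In the authors' deposited table, 12 of 58 members with an adjusted p were under 0.05 (20.7%, against 12.7% of all genes there). In the authors' deposited table these were 6 higher in SCO (Acvrl1, Gdf10, Id3, Id4, Ltbp3 and Sostdc1) and 6 lower (Acvr1, Bmpr1a, Fst, Id2, Inhbb and Tgfb2). DESeq2 run here on the recovered reads called 6 higher and 6 lower of 57, 21.1% against 12.9% of all genes.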

How the data were processed

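The members and gene lists were chosen with earlier results of these data known. Per the labels, RNA was extracted with a RNeasy Micro Kit and libraries made with a TruePrep kit. FastQC, HISAT, HISAT2, featureCounts, DESeq2 and the build GRCm38 are named in the submitters' processing notes. The sources used here do not give versions, gene annotation or strand setting. The authors deposited a normalized signal per gene and library, which is a read count over a size factor. Per the file headers, they also deposited a log2 fold change, a statistic (a score), a p-value and an adjusted p-value.

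Whole reads were recovered for 100% of values (tolerance 1e-06). A gene at 0 was bounded by 3 reads per library, and such bounds cover counting error only. No column came from another series (0 columns). limma 3.58.1 (trend, R 4.3.3) tested log2(value + 1) for the 28150 genes whose mean reached 1 in SCO or in hippocampus, with Benjamini-Hochberg adjustment over all of them and no covariate. Alternatives included edgeR 4.0.16 and DESeq2 1.42.0 on recovered reads, other pseudocounts, filters and scalings, a replicate block and left-out replicates. Scripts were tested on simulated data, with changes placed in genes of high mean reads alone. There limma-trend recovered 74% of log2 changes of 3 and 93% of those of 5, with 7 false calls among 25209 genes. Smaller changes and genes with few reads were not covered, so a member that did not pass may still differ. All 65 member identifiers matched GENCODE M21 with version, 20 sharing exon bases with another gene. Size factors scale all genes of a library alike, so a library with different RNA make-up can shift them all.

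By rule, called members with a mean of at least 100 normalized counts were described in full. Named with fewer values were uncalled members without overlap at that mean, the 2 with the highest mean per role, and called pathway genes. Other members, such as Id1, Fst, Bmp6, Acvr1, Bmpr1b, Chrd and Twsg1, were named after their values were seen, as were the pathway genes Msx1 and Msx2. A member and an overlapping gene are not reported here.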

Additional observations from a re-analysis of the deposited data

Results flagged for a closer look

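Of 54 groups of libraries checked among the named members, 9 held a library far from the others of its tissue. For normally distributed values chance flags about 1 group in 20. The values checked were normalized counts, many of them skewed, so that rate need not hold here. In SCO, Bmp4 was 546 normalized counts in replicate 1 and 5.48 to 12.3 in the others. Ltbp1 was 2338 in SCO replicate 1 and 0 in the others. Smad6 was 276 in SCO replicate 2 and 0 to 2.98 in the others. Bambi was 5.48 in SCO replicate 3 and 1066 to 1161 in the others. Id3 was 6939 in SCO replicate 4 and 8716 to 8873 in the others. In hippocampus, Smad2 was 3644 in replicate 1 and 2145 to 2498 in the others. Id3 was 7481 in hippocampus replicate 2 and 4359 to 4976 in the others. Fstl5 was 1441 in hippocampus replicate 2 and 3565 to 4286 in the others. Bmp1 was 1729 in hippocampus replicate 5 and 61.1 to 543 in the others.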

How the results depend on the processing

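Members higher in SCO numbered 0, and 1 with a mean of at least 10, 2 in CPM, 1 with edgeR, 6 with DESeq2, 1 without hippocampus replicates 4 and 5 and 2 without SCO replicate 4 and hippocampus replicate 2. Leaving out single replicates gave 0 to 2. Members lower in SCO numbered 2, and 6 with DESeq2; single left-out replicates gave 2 to 4. Over all genes 859 were called, and 1383 in CPM, 2737 with DESeq2, 449 without hippocampus replicates 4 and 5, and 498 to 1077 with single left-out replicates. Pathway genes called higher numbered 1, and 5 with DESeq2. Those called lower numbered 3, and 6 in CPM, 8 with DESeq2, 1 without hippocampus replicates 4 and 5, and 1 to 3 with single left-out replicates. With the replicate block, members higher and lower numbered 0 and 0, pathway genes 0 and 0, and all genes 1. Same-numbered deviations correlated at -0.03 to 0.02. The replicate numbers follow the sample order, not the numbers in the column headers. Among pairs sharing a header number, SCO replicate 3 and hippocampus replicate 4 correlated at 0.057, and replicate 2 of each tissue at -0.025. These few correlations cannot show whether samples were paired. Inhbb lost its call in CPM (limma adjusted p = 0.063). That fit kept the pseudocount and the filter at 1 on the CPM scale and tested 19822 genes. It therefore changed more than the scaling. Other pseudocounts, no filter, TMM and robust moderation kept each count within 1.5 times. The cause of these shifts was not tested.

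Among members the naming rule took, uncalled genes that changed sign were Bmp8b (-0.014 to 0.30 over single left-out replicates), Bmp1 (0.14 with the replicate block, -1.06 to 0.14 over single left-out replicates, 0.38 without hippocampus replicates 4 and 5), and Smad5 (-0.41 to 0.010 over left-out libraries, the highest without SCO replicate 4 and hippocampus replicate 2). Under edgeR and DESeq2, Gdf5 was 0.28 and 0.33, Ltbp1 0.14 and 0.17, Smad6 1.01 and 1.07, and Smad7 0.35 and 0.39. In CPM Smad6 was 0.13 and Smad7 0.066. Smad6 was 0.90 without SCO replicate 4 and hippocampus replicate 2, and -2.65 at lowest without SCO replicate 2. No scaling moved the median of all genes by over 0.1. Of the members outside that rule, 9 changed sign over single left-out replicates, among them Twsg1 (-0.25 to 0.55).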
